A study of Solanum lycopersicum with 18 samples.

Results

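The genes described here are 10 WRKY transcription factor genes of tomato (Solanum lycopersicum), taken as the rows of the gene tables whose Solyc identifier belongs to a fixed list of 10, out of 33976 rows in all. They fall into 2 lists of 5. The first holds SlWRKY37 (Solyc01g079360), SlWRKY39 (Solyc03g116890), SlWRKY16 (Solyc02g032950), SlWRKY78 (Solyc07g055280) and SlWRKY75 (Solyc05g015850). The study had listed these as raised by methyl jasmonate (MeJA) in all 3 genotypes, in these same libraries. The second holds the stress WRKY genes SlWRKY31 (Solyc06g066370), SlWRKY33 (Solyc09g014990), SlWRKY40 (Solyc06g068460), SlWRKY45 (Solyc08g067360) and SlWRKY46 (Solyc08g067340). All 10 identifiers had a row. Because the first list was chosen on these samples, its direction under MeJA is not independent evidence.

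RNA was sequenced from re-dried mature seeds of the genotypes Micro-Tom, Criollo and Stupicke. Every seed lot, controls included, had been osmoprimed for 48 h in the dark in polyethylene glycol at -1 MPa, then washed and dried again for 48 h. The priming solution held either 2 mM MeJA (MeJA-primed) or water (mock-primed), which gave 6 groups of 3 biological replicates of 30 seeds each and 18 libraries. Since no unprimed seeds were analysed, each MeJA effect is an effect on top of priming and redrying.

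WRKY proteins are plant transcription factors that bind a DNA element called the W-box, and many of their genes are themselves switched on by wounding, pathogens and defence hormones. Jasmonates are lipid-derived hormones of the wound and necrotroph response, and some WRKY proteins act downstream of them while others act in salicylate or abscisic acid signalling. Mitogen-activated protein (MAP) kinases phosphorylate certain WRKY proteins, and VQ-motif proteins bind them. In Arabidopsis seeds, WRKY factors also take part in the abscisic acid control of germination.

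Total estimated counts ranged from 18807931 to 20560389 per library, so that depth hardly differed between groups. The treatment left its mark in every genotype: each of 5 jasmonate marker genes (3 JAZ repressors and the synthesis genes SlLOXD and SlAOC) rose in all 3. Of the seed markers, 5 of 5 (vicilin and 4 oleosins) were detected, and of the fruit markers 1 of 2, since polygalacturonase 2a had 0 counts in every library. The seed markers were picked by gene names the study gave, after the data had been opened, so their detection is no independent check of the tissue. The log-scale correlation between replicates was at least 0.975 in all pairs of libraries but 2, both of which involved the third mock-primed Micro-Tom replicate (0.941 and 0.932). In whole seeds, fewer cells of a type and less RNA per cell cannot be told apart.

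Levels of the 10 genes differed widely when compared per transcript length, in TPM. SlWRKY31 ran from 13.2 to 81.4 TPM over the 18 libraries (median 37.3) and SlWRKY40 from 4.07 to 78.6 TPM (median 23.1). SlWRKY39 came next with a median of 8.47 TPM, followed by SlWRKY78 at 4.27 TPM and SlWRKY37 at 3.16 TPM. SlWRKY33 and SlWRKY16 had medians of 2.41 and 2.13 TPM and SlWRKY75 one of 0.937 TPM. SlWRKY46 and SlWRKY45 were at the edge of detection, with 27 and 6 counts over all libraries. The highest and the lowest medians of the 10 genes thus both belonged to stress genes.

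In mock-primed seeds SlWRKY31 and SlWRKY40 together made up most of the summed TPM of the 10 genes. In Micro-Tom their shares were 44.6% ± 9.89 and 40.5% ± 5.77 (SD, n = 3). Criollo had shares of 56.3% ± 4.13 and 31.1% ± 4.62, and Stupicke had 50.0% ± 0.115 and 18.8% ± 3.91. The sum itself was 61.8 ± 7.99 TPM in mock-primed Criollo, 30.3 ± 3.80 in Stupicke and 132 ± 24.1 in Micro-Tom. After MeJA priming its mean was 96.3 TPM in Criollo (88.8 to 109 over the replicates), with 92.7 TPM in Stupicke (52.3 to 153) and 189 TPM in Micro-Tom (122 to 238), so that replicates differed more in the last 2. SlWRKY39 held 1.66% ± 1.30 of the sum in mock-primed and 15.4% ± 2.41 in MeJA-primed Criollo, so that it became the third most abundant of the 10 there.

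**Figure D1:**
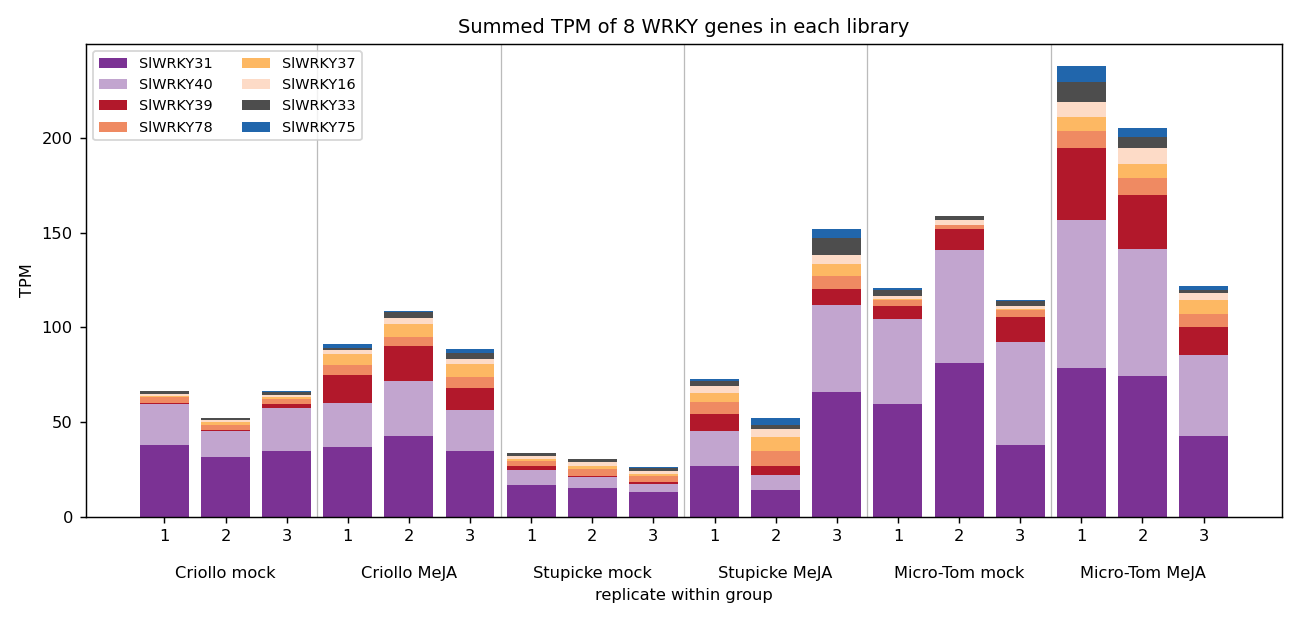
Summed TPM (vertical axis) of the 8 WRKY genes that passed the filter on low counts, in each of the 18 libraries (horizontal axis, grouped by genotype and treatment), with 1 coloured segment per gene. SlWRKY31 and SlWRKY40 fill most of each mock-primed bar, and the bar of MeJA-primed Stupicke replicate 3 stands well above the other 2 of its group, whose sum over the 10 genes ran from 52.3 to 153 TPM.

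SlWRKY37, which in tomato promotes the leaf senescence brought on by jasmonate and darkness, separated the treatments most cleanly. In CPM (reads scaled by the TMM-normalized library size), mock-primed Criollo gave 0.417, 0.911 and 0.554 and MeJA-primed Criollo 4.42, 5.60 and 5.36. Mock-primed Stupicke gave 1.08, 1.37 and 1.16 CPM and MeJA-primed Stupicke 3.94, 6.69 and 5.27 CPM. In Micro-Tom, mock-primed seeds gave 0.574, 0.193 and 0.554 CPM and MeJA-primed seeds 5.78, 5.998 and 6.28 CPM. No MeJA-primed library overlapped with a mock-primed one in any genotype, and the MeJA-primed groups ended at similar levels: Stupicke overlapped with both other genotypes, and Criollo lay just below Micro-Tom. Mock-primed Stupicke libraries were all above the mock-primed libraries of the other genotypes. The rise was largest in value in Micro-Tom, at 13.6-fold (log2 3.76 ± 0.33, SE, adjusted p = 1.88e-06 in edgeR's quasi-likelihood test). Criollo followed with 8.09-fold (log2 3.02 ± 0.31, adjusted p = 1.65e-05) and then Stupicke with 4.38-fold (log2 2.13 ± 0.29, adjusted p = 0.000552). No alternative setting changed any of these 3 calls.

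SlWRKY16 (Solyc02g032950) rose in all 3 genotypes by less. Its CPM values were 1.20, 1.41 and 1.34 in mock-primed and 2.77, 4.73 and 3.65 in MeJA-primed Criollo. In Stupicke they were 2.49, 3.00 and 2.53 CPM in mock-primed seeds and 5.81, 6.91 and 7.67 CPM in MeJA-primed seeds. In Micro-Tom they were 1.86, 2.80 and 2.71 CPM in mock-primed seeds, and 10.6, 10.7 and 5.04 CPM in MeJA-primed seeds. The treatments did not overlap in any genotype, and replicate 3 of MeJA-primed Micro-Tom lay well under the other 2. Fold changes were 2.81 in Criollo (log2 1.49 ± 0.29, adjusted p = 0.00667), 2.54 in Stupicke (log2 1.34 ± 0.27, adjusted p = 0.0159) and 3.57 in Micro-Tom (log2 1.84 ± 0.27, adjusted p = 0.000416). The Stupicke call was close to the threshold and was lost when any of its mock-primed libraries or MeJA-primed replicate 2 or 3 was left out, with adjusted p between 0.0507 and 0.0907 and log2 fold changes of 1.25 to 1.43. With limma on log2(TPM + 1) the calls in Criollo and Stupicke were also lost, at adjusted p of 0.0543 and 0.0522.

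SlWRKY78 (Solyc07g055280) also rose in all 3 genotypes. Mock-primed Criollo libraries held 2.87, 2.78 and 2.77 CPM and MeJA-primed ones 5.39, 5.14 and 6.35 CPM. Stupicke libraries held 2.82, 3.61 and 3.68 CPM without and 7.01, 9.44 and 8.36 CPM with MeJA. Micro-Tom libraries held 2.96, 2.17 and 4.71 CPM without and 9.61, 8.87 and 7.41 CPM with MeJA. Mock-primed seeds of the 3 genotypes were alike within their ranges, and MeJA-primed Criollo stayed below both other MeJA-primed groups. The fold change was 2.00 in Criollo (log2 1.00 ± 0.23, adjusted p = 0.0194), 2.45 in Stupicke (log2 1.29 ± 0.23, adjusted p = 0.00509) and 2.64 in Micro-Tom (log2 1.40 ± 0.23, adjusted p = 0.000851). In Criollo the call was lost without any of the mock-primed replicates or without MeJA-primed replicate 3 (adjusted p 0.0555 to 0.0872, log2 fold change 0.91 to 1.02), and in Micro-Tom when only the 6 libraries compared entered the fit (adjusted p = 0.0505).

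SlWRKY39, whose overexpression in tomato raises resistance to Pseudomonas syringae and tolerance of drought and salt, differed in level between mock-primed Micro-Tom and the other genotypes. With edgeR, no difference in its MeJA response between genotypes passed the test. In Criollo the mock-primed libraries held 0.738, 0.319 and 1.94 CPM and the MeJA-primed ones 15.4, 20.2 and 11.5 CPM. In Stupicke the values were 2.11, 0.966 and 1.21 CPM for mock priming and 9.34, 5.77 and 9.32 CPM for MeJA priming. In Micro-Tom mock-primed seeds already held 6.83, 10.5 and 19.1 CPM, and MeJA-primed seeds 39.4, 28.1 and 16.2 CPM. Criollo and Stupicke thus went from near 1 CPM to about the level of mock-primed Micro-Tom, where the 2 treatments overlapped. The fold change was 15.6 in Criollo (log2 3.97 ± 0.54, adjusted p = 0.000265) and 5.70 in Stupicke (log2 2.51 ± 0.52, adjusted p = 0.0185), and in Micro-Tom the difference was not called (log2 1.21 ± 0.44, 95% interval 0.27 to 2.13, adjusted p = 0.0712). Leaving out replicate 3 of mock-primed Micro-Tom, the library that stands apart, brought that difference to 1.69 with adjusted p = 0.0198. With all libraries kept, limma on log2(TPM + 1) called it (1.25, adjusted p = 0.0328), as did limma voom with quality weights (1.69, adjusted p = 0.00109). DESeq2 did not. In Stupicke the call was lost without mock-primed replicate 2 or 3 or MeJA-primed replicate 3 (adjusted p = 0.126, 0.0866 and 0.0645).

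SlWRKY75 was nearly silent without MeJA. Its Arabidopsis namesake acts in phosphate starvation and leaf senescence. Mock-primed Criollo had 0, 1 and 1 counts and MeJA-primed Criollo 12, 5 and 11 counts. Mock-primed Stupicke had 0, 1 and 3 counts and MeJA-primed Stupicke 7, 21 and 28 counts, and Micro-Tom had 6, 0 and 5 counts against 50, 27 and 13 counts. Every MeJA-primed library therefore exceeded every mock-primed one of its genotype. Scaled for library size, 28 against 2 counts in Criollo gave a ratio of 14.9 (95% counting interval 3.76 to 129). In Stupicke 56 against 4 counts gave a ratio of 13.9 (interval 5.15 to 52.9), and in Micro-Tom 90 against 11 counts gave one of 8.25 (interval 4.40 to 17.1). These intervals cover counting error only. In each genotype 1 mock-primed library had 0 counts, for which 3 counts would be 0.139 to 0.163 CPM. Over replicates, edgeR called the rise in Micro-Tom (adjusted p = 0.0152, lost without MeJA-primed replicate 1 at adjusted p = 0.0747 and in the fit of the 6 libraries compared at 0.0970), but in Criollo (0.0781) and Stupicke (0.0600) the adjusted p missed the threshold. DESeq2 called the gene in both, with adjusted p of 0.0360 and 0.0125. In Stupicke edgeR also called it without MeJA-primed replicate 1 (adjusted p = 0.0271) or mock-primed Micro-Tom replicate 2 (0.0317).

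**Figure D2:**
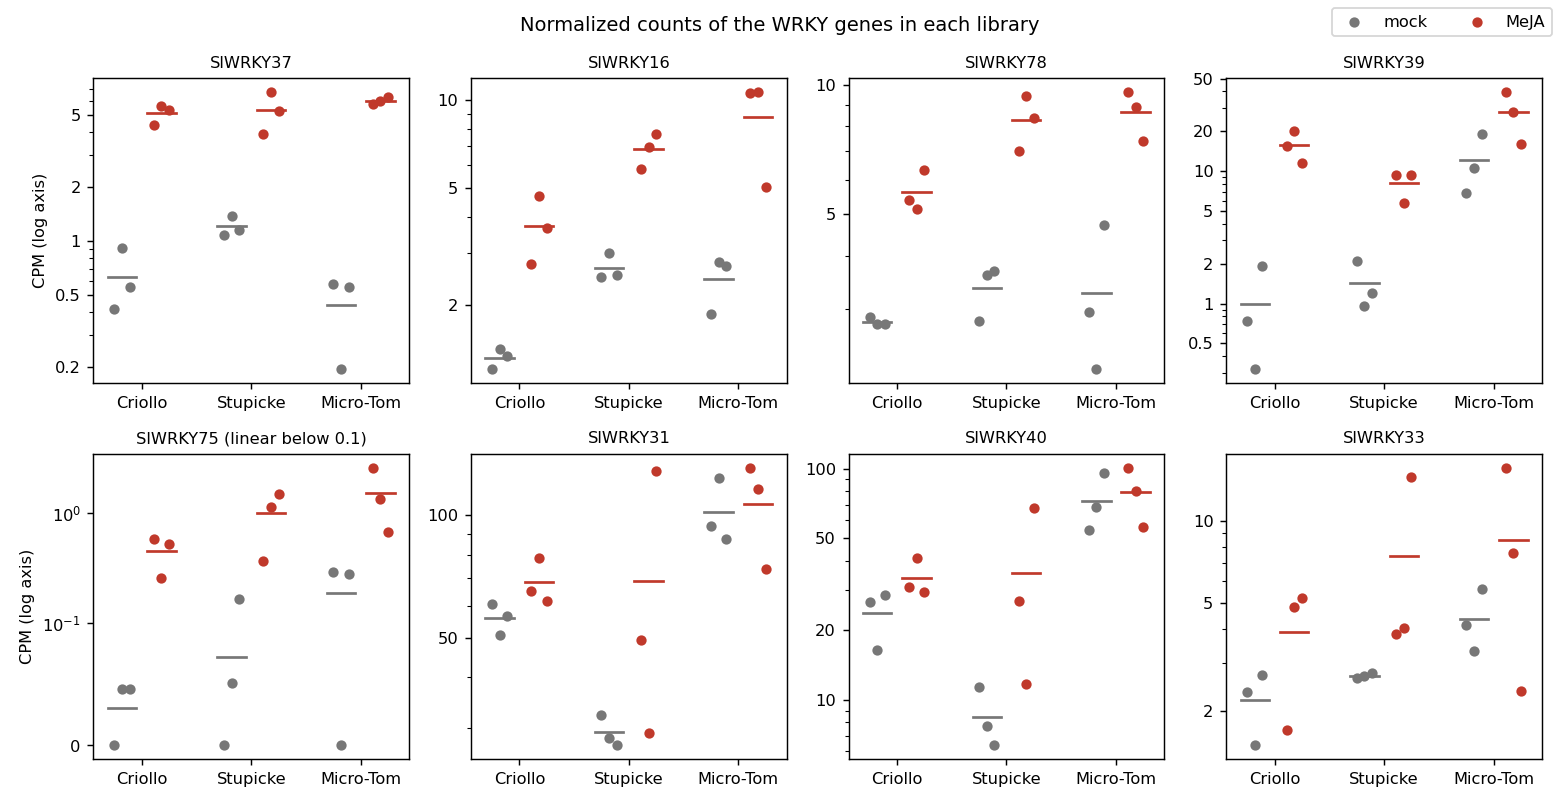
CPM (vertical axis, log scale, linear below 0.1 for SlWRKY75) of 8 WRKY genes in each of the 18 libraries, by genotype, with mock-primed libraries in grey and MeJA-primed ones in red. Points are libraries and lines are group means (n = 3). For SlWRKY37 the MeJA-primed points lie at 3.94 to 6.69 CPM in all genotypes, whereas for SlWRKY31 and SlWRKY40 grey and red points of Micro-Tom intermix.

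SlWRKY31, the most abundant of the 10, is the tomato counterpart of Arabidopsis WRKY33, a regulator of resistance to the grey mould Botrytis. In Criollo it gave 60.4, 50.9 and 56.6 CPM in mock-primed and 65.1, 78.6 and 61.4 CPM in MeJA-primed seeds. In Micro-Tom it gave 94.0, 124 and 87.7 CPM without and 131, 116 and 73.6 CPM with MeJA. Stupicke gave 32.4, 28.4 and 27.3 CPM in mock-primed seeds, but 49.4, 29.2 and 128 CPM in MeJA-primed seeds. MeJA-primed libraries were all above mock-primed ones in Criollo, by little, and the treatments overlapped in Micro-Tom and Stupicke. The log2 difference was 0.29 ± 0.36 in Criollo (adjusted p = 0.764) and 0.07 ± 0.36 in Micro-Tom (adjusted p = 0.911), with 95% intervals of -0.48 to 1.05 and -0.69 to 0.83. In Stupicke it was 1.23 ± 0.37 (adjusted p = 0.163), and 0.42 ± 0.24 without MeJA-primed replicate 3. Without replicate 2 instead, the difference was 1.60 and passed the test (adjusted p = 0.0141), and DESeq2 on all libraries also called it (adjusted p = 0.0415).

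SlWRKY40 is of a small WRKY group whose Arabidopsis members restrain defence and abscisic acid responses. Like SlWRKY31, it was highest in replicate 3 and lowest in replicate 2 of MeJA-primed Stupicke. In mock-primed Micro-Tom, however, replicate 3 was lowest for SlWRKY31 and highest for SlWRKY40. Criollo seeds held 26.4, 16.5 and 28.4 CPM after mock priming and 30.8, 41.1 and 29.2 CPM after MeJA priming. Micro-Tom seeds held 54.1, 68.6 and 95.5 CPM and 101, 80.1 and 56.0 CPM, and Stupicke seeds 11.3, 7.68 and 6.38 CPM and 26.8, 11.8 and 67.3 CPM. The treatments overlapped in Micro-Tom. In Criollo and Stupicke they did not, but in Criollo the nearest libraries lay close together, while the 3 MeJA-primed Stupicke libraries differed among themselves by 5.72 times. SlWRKY40 was called in Stupicke (log2 2.06 ± 0.47, adjusted p = 0.0345) and not in Criollo (0.50 ± 0.44, adjusted p = 0.623) or Micro-Tom (0.12 ± 0.43, adjusted p = 0.871). The Stupicke call was lost in 12 of 28 alternative settings. Without MeJA-primed replicate 3 the difference was 1.19 (adjusted p = 0.255), without any one of the mock-primed replicates it was 1.89 to 2.33 (adjusted p 0.0760 to 0.168), and without the Micro-Tom or Criollo library that also ended the call, MeJA-primed replicate 2 and mock-primed replicate 1, adjusted p was 0.0532 and 0.0510.

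SlWRKY33, the other close relative of Arabidopsis WRKY33, was far less abundant. Its CPM values were 2.36, 1.50 and 2.72 in mock-primed and 1.70, 4.83 and 5.21 in MeJA-primed Criollo. Stupicke had 2.66, 2.70 and 2.75 CPM without and 3.84, 4.05 and 14.4 CPM with MeJA, and Micro-Tom 4.16, 3.33 and 5.59 CPM without and 15.6, 7.58 and 2.37 CPM with MeJA. MeJA-primed libraries were all higher only in Stupicke, and in Micro-Tom they reached both above and below the mock-primed ones. The log2 differences of 0.83 ± 0.62, 1.46 ± 0.61 and 0.97 ± 0.58 in Criollo, Stupicke and Micro-Tom did not pass the test (adjusted p = 0.541, 0.511 and 0.260), and the value in Stupicke was 0.54 without MeJA-primed replicate 3. Intervals reached up to 2.14, 2.75 and 2.21, so that a rise as large as that of SlWRKY16 lies within them in each genotype.

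SlWRKY45, which favours root-knot nematodes in tomato, and SlWRKY46, which lowers resistance to Botrytis, did not pass the filter on low counts. SlWRKY45 had no counts in any mock-primed or Criollo library. It had 3 counts in replicate 3 of MeJA-primed Stupicke and 1 in each MeJA-primed Micro-Tom library, and since both groups stayed at the floor of 3 counts, no fold is given. SlWRKY46 had 5 counts in mock-primed and 9 in MeJA-primed Micro-Tom (ratio 1.82, counting interval 0.546 to 6.90). Stupicke had 2 and 5 counts (ratio 2.49, interval 0.407 to 26.1) and Criollo 4 and 2 counts (ratio 0.533, interval 0.0482 to 3.72), so that each interval includes 1. In the RefSeq annotation of the assembly SLM_r2.1, genes of these 2 names are next to each other on chromosome 8, with 0 protein-coding genes between them, and both were barely expressed here. Salmon divides reads among similar transcripts, so counts of close WRKY paralogs such as these, or SlWRKY31 and SlWRKY33, may have been split between them. This was not tested. Summed over each group, the estimated counts of SlWRKY45 and SlWRKY46 were whole numbers. Those of SlWRKY33 were whole or nearly so, such as 420.055 in MeJA-primed Stupicke, and those of SlWRKY31 had fractions, such as 3649.351 in mock-primed Criollo.

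Counting the calls, 4 of the 5 study-listed genes rose in each genotype: SlWRKY37, SlWRKY39, SlWRKY16 and SlWRKY78 in Criollo and Stupicke, and SlWRKY75 in place of SlWRKY39 in Micro-Tom. The study, which used DESeq2, had listed all 5 as raised in every genotype. DESeq2 as run here did not call SlWRKY39 in Micro-Tom either. Of the 3 stress WRKY genes that could be tested, 0 rose in Criollo and Micro-Tom and 1 (SlWRKY40) in Stupicke. At an unadjusted p of 0.05 edgeR also gave 0 stress genes in Criollo and Micro-Tom, as did DESeq2 and limma, whereas in Stupicke all 8 genes passed at that unadjusted level with edgeR. With edgeR on the 6 Criollo libraries alone, SlWRKY31 and SlWRKY40 were below it in Criollo too. None of the 8 genes fell. Among all 19914 genes tested, 7.98% were called up by MeJA in Micro-Tom, 3.19% in Criollo and 1.45% in Stupicke. These backgrounds depended on single libraries. In Criollo the 635 genes called up became 328, 377 and 416 without mock-primed replicate 2, 1 and 3, 338 without MeJA-primed replicate 2 and 1157 without mock-primed Micro-Tom replicate 3. In Stupicke the 289 became 176, 159 and 181 without mock-primed replicate 1, 2 and 3, and in Micro-Tom the 1589 became 1037 without MeJA-primed replicate 1. Since the study-listed genes had been picked for this rise, their count against that share says nothing new. The count of stress WRKY genes, 0 or 1 of 3, is too small to be set against it. In Micro-Tom the log2 fold change had a median of 1.84 over the 5 study-listed genes and of 0.12 over the 3 stress genes, whereas Stupicke had medians of 2.13 and 1.46 and Criollo 3.02 and 0.50. Over all genes the median was -0.01 in the first 2 and 0.01 in Criollo. The summed TPM of the 5 seed markers moved with the treatment as well. It ran from 4079 to 5121 in mock-primed and from 6894 to 11735 in MeJA-primed Criollo. In Micro-Tom it ran from 7638 to 11334 without and from 19342 to 23106 with MeJA, while the ranges overlapped in Stupicke, at 25886 to 28976 and 23238 to 30292. Its part in the WRKY results was not tested.

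**Figure D3:**
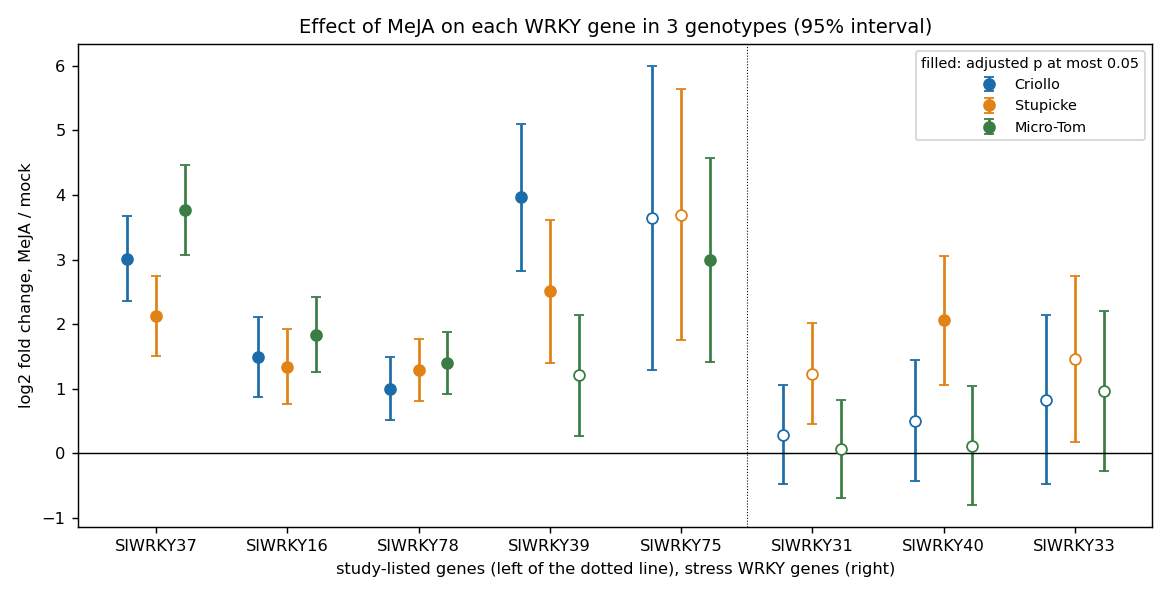
Log2 fold change of MeJA-primed against mock-primed seeds (vertical axis) for 8 WRKY genes in Criollo, Stupicke and Micro-Tom, with 95% intervals from edgeR. Filled points passed the test at an adjusted p of 0.05, and the dotted line parts the study-listed genes from the stress genes. The points of SlWRKY37, SlWRKY16 and SlWRKY78 are filled in all genotypes, and among the stress genes only SlWRKY40 in Stupicke is.

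Whether the size of the MeJA response differed between genotypes was tested as an interaction. Among all genes, 0.0301% were called for Stupicke against Criollo, 0.447% for Stupicke against Micro-Tom and 0.0954% for Criollo against Micro-Tom, so that few genes passed this test anywhere. With edgeR 0 of the 8 WRKY genes passed in any of the 3 pairs, and 1, 3 and 1 had an unadjusted p below 0.05. The response of SlWRKY39 was larger in Criollo than in Micro-Tom by 2.76 ± 0.69 on the log2 scale (95% interval 1.31 to 4.21, adjusted p = 0.226). That of SlWRKY37 was smaller in Stupicke than in Micro-Tom, with a difference of -1.63 ± 0.44 (interval -2.57 to -0.69, adjusted p = 0.121). DESeq2 called these 2 differences, with adjusted p of 0.0198 and 0.0174, and 0 between Stupicke and Criollo, while limma on log2(TPM + 1) called 0 in each pair. For SlWRKY40 the difference between Stupicke and Micro-Tom was 1.94 ± 0.63 (interval 0.60 to 3.29, adjusted p = 0.184). For SlWRKY78 the 3 differences were at most 0.40 in size, with intervals within -1.08 and 0.97, and those of SlWRKY16 lay within -1.31 and 0.68.

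In mock-primed seeds 3 of the 8 differed between Stupicke and Criollo, 4 between Stupicke and Micro-Tom and 3 between Criollo and Micro-Tom, where the shares among all genes were 41.7%, 60.5% and 50.0%. These counts are near or below the shares among all genes and so are no result about the WRKY genes as a group, and the single genes are given as values. With edgeR on all 18 libraries SlWRKY40 was the gene called in every pair. It was lower in Stupicke than in Criollo (log2 -1.49 ± 0.47, adjusted p = 0.0174) and than in Micro-Tom (log2 -3.10 ± 0.48, adjusted p = 5.33e-05), and lower in Criollo than in Micro-Tom (log2 -1.61 ± 0.45, adjusted p = 0.00720). Its first difference was lost without Criollo replicate 3 or Stupicke replicate 2 or 3 (adjusted p 0.0540 to 0.0758). SlWRKY31 kept the same order, at 29.3 ± 2.66, 56.0 ± 4.81 and 102 ± 19.2 CPM in Stupicke, Criollo and Micro-Tom (SD, n = 3). Its difference between Stupicke and Micro-Tom passed the test (log2 -1.79 ± 0.37, adjusted p = 0.000694), and those of Stupicke and Criollo (log2 -0.93 ± 0.37, adjusted p = 0.0527) and of Criollo and Micro-Tom (log2 -0.86 ± 0.36, adjusted p = 0.0590) missed it by little. Both were called without MeJA-primed Stupicke replicate 3 (adjusted p = 0.00333 and 0.00411) or replicate 2 (0.0150 and 0.0177), libraries that enter these comparisons only through the shared estimate of the spread. With all libraries kept, DESeq2 (adjusted p = 0.0306 and 0.0360) and limma voom with quality weights (0.0204 and 0.0464) also called both. So did the fit of the 6 libraries compared (0.000369 and 0.0092). The first was also called without mock-primed Micro-Tom replicate 3 (0.0454), and with limma on log2(TPM + 1) (0.0273) and log2(TPM + 0.1) (0.0276). The second was not called with limma on either TPM scale.

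SlWRKY39 was high in mock-primed Micro-Tom alone. Relative to Micro-Tom the log2 difference was -3.08 ± 0.52 in Stupicke (adjusted p = 0.000116) and -3.59 ± 0.54 in Criollo (adjusted p = 6.39e-05), and Stupicke and Criollo did not pass the test against each other (0.51 ± 0.60, adjusted p = 0.530). Without Micro-Tom replicate 3 these differences were -2.60 and -3.11 and stayed called. SlWRKY37 went the other way, with Stupicke above Criollo (log2 0.93 ± 0.34, adjusted p = 0.0343) and above Micro-Tom (log2 1.45 ± 0.36, adjusted p = 0.00247). The former was lost with limma on log2(TPM + 1) (0.36, adjusted p = 0.0970) and without Criollo replicate 1 or 3 or Stupicke replicate 2 or 3 (0.71 to 0.96, adjusted p 0.0664 to 0.140). SlWRKY16 was lowest in Criollo, by a log2 difference of 1.02 ± 0.30 from Stupicke (adjusted p = 0.0115) and of -0.89 ± 0.30 from Micro-Tom (adjusted p = 0.0197). With limma both calls were lost, at 0.43 and -0.44 on log2(TPM + 1) (adjusted p = 0.133 and 0.120) and at 0.71 and -0.71 on log2(TPM + 0.1) (adjusted p = 0.0631 and 0.0608), and the latter also without Micro-Tom replicate 2 or 3 or Criollo replicate 1 (-0.79 to -0.83, adjusted p 0.0531 to 0.0641). SlWRKY78, SlWRKY75 and SlWRKY33 were not called in any pair, except between Criollo and Micro-Tom, where SlWRKY75 was called without Micro-Tom replicate 2 (log2 -2.96, adjusted p = 0.0416) and SlWRKY33 in the fit of the 6 libraries compared (log2 -0.99, adjusted p = 0.0454).

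With limma on log2(TPM + 1) the median log2 difference of all genes was -0.23 between mock-primed Stupicke and Criollo and 0.20 between Criollo and Micro-Tom, and on log2(TPM + 0.1) it was -0.27 and 0.25, against -0.02 and 0.0034 in edgeR. Genotype differences of that size depend on the scaling. Any feature of the plants or seed lots that goes with genotype cannot be told apart from it. The fruit gene E8 was also higher in Micro-Tom, at 5.10 to 12.3 TPM against 0.0834 to 2.52 TPM in the other genotypes, and its part in the higher SlWRKY31, SlWRKY40 and SlWRKY39 there was not tested.

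Ordered from low to high over the 6 groups, the genes gave 2 patterns. SlWRKY37, SlWRKY78 and SlWRKY75 had all mock-primed groups below all MeJA-primed groups in mean CPM, and so had SlWRKY16. For SlWRKY37 and SlWRKY78 the step from the highest mock-primed to the lowest MeJA-primed group was also free of overlap, but for SlWRKY16 and SlWRKY75 the ranges on the 2 sides of that step overlapped. SlWRKY31 and SlWRKY40 had the order mock-primed Stupicke, mock-primed Criollo, MeJA-primed Criollo, MeJA-primed Stupicke, mock-primed Micro-Tom and MeJA-primed Micro-Tom, in which the lowest 2 steps were free of overlap and the upper 3 were not. SlWRKY39 joined both patterns, since MeJA-primed Criollo (15.7 ± 4.35 CPM) and Stupicke (8.15 ± 2.05 CPM) lay on either side of mock-primed Micro-Tom (12.1 ± 6.27 CPM), with overlapping ranges. SlWRKY33 had overlapping ranges at every step.

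The spread between replicates differed among the genes of both lists. The biological coefficient of variation from edgeR was 0.172 for SlWRKY78, 0.178 for SlWRKY37 and 0.224 for SlWRKY16, near the median of 0.164 over all genes. It was 0.308 for SlWRKY31, 0.373 for SlWRKY40, 0.401 for SlWRKY39, 0.488 for SlWRKY33 and 0.524 for SlWRKY75, and each of these lay in the upper range of all genes (86.3% of genes were below SlWRKY31). SlWRKY31 and SlWRKY40 were the most abundant of the 8 genes and SlWRKY75 the least.

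Some libraries deviated from their group in several of these genes at once. In replicate 3 of MeJA-primed Stupicke, SlWRKY31, SlWRKY33 and SlWRKY40 lay 1.17, 1.23 and 1.28 above their group mean on the log2 scale, and in replicate 2 they lay at -0.96, -0.58 and -1.23. In the same replicate 3 the study-listed SlWRKY75 lay 0.72 and SlWRKY39 0.23 above the mean, while SlWRKY37, SlWRKY16 and SlWRKY78 deviated by no more than 0.18. The library was thus highest in deviation for the 3 stress genes, with SlWRKY75 next. In replicate 3 of MeJA-primed Micro-Tom, SlWRKY31, SlWRKY33 and SlWRKY40 lay at -0.50, -1.44 and -0.45. The study-listed SlWRKY16, SlWRKY39 and SlWRKY75 were low there too, at -0.71, -0.69 and -0.90, so that this deviation was shared by both lists. For the Stupicke library, the replicate correlations over all genes, 0.980 and 0.984, lay in the range of the other groups. As a description over 18 libraries, which share genotype and treatment, Pearson's r of log2(CPM + 1) was 0.959 between SlWRKY31 and SlWRKY40. Within groups, on deviations of edgeR's log2 CPM from the group means, it was 0.877. The scales treat low counts differently, so the 2 values of a pair are not strictly comparable. Between SlWRKY31 and SlWRKY33 these values were 0.608 and 0.665, and between SlWRKY33 and SlWRKY40 0.600 and 0.674. Pairs across the lists reached like values within groups, with 0.712 for SlWRKY16 and SlWRKY33 and 0.660 for SlWRKY39 and SlWRKY40. SlWRKY37 and SlWRKY78 gave 0.915 over the libraries and 0.589 within groups, and SlWRKY37 with SlWRKY31 0.143 and -0.323.

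**Figure D4:**
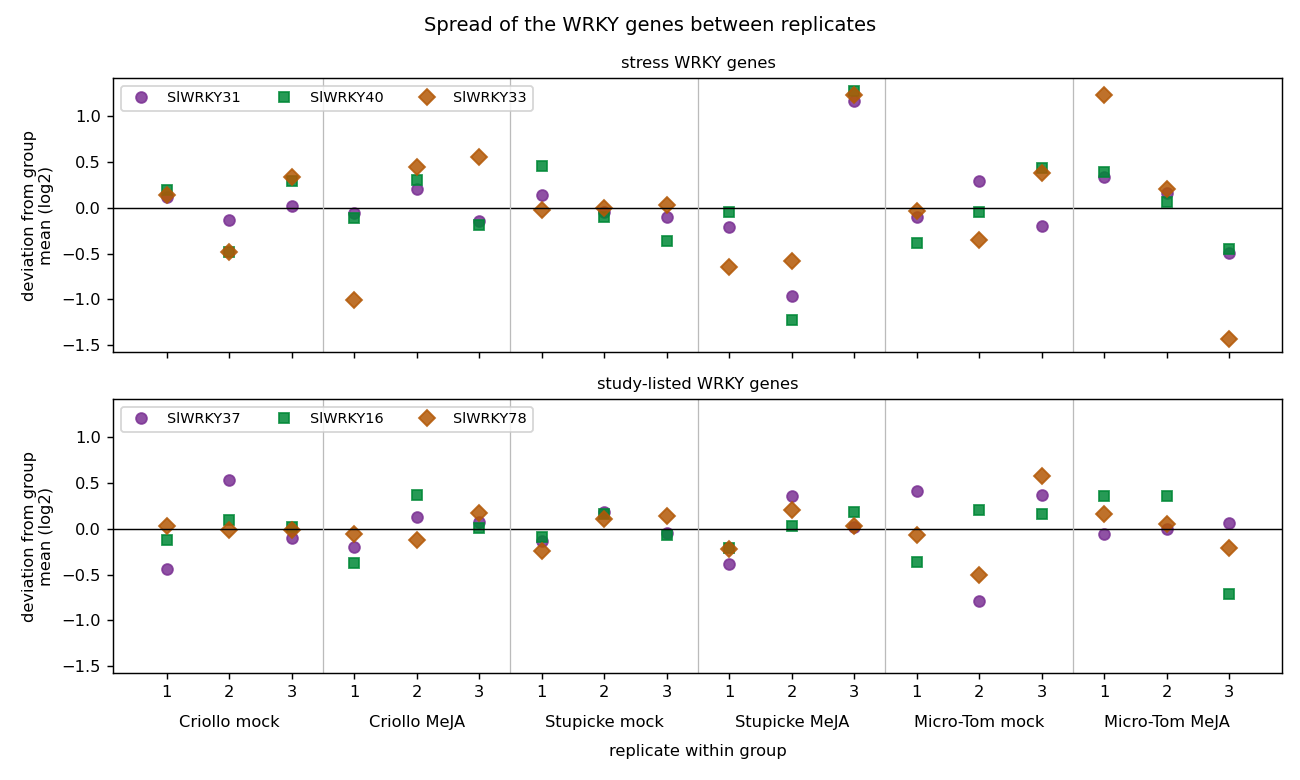
Deviation of each library from the mean of its group (vertical axis, log2 CPM) for 3 stress WRKY genes (upper panel) and 3 study-listed ones (lower panel), over the 18 libraries grouped by genotype and treatment (horizontal axis). In the upper panel the 3 symbols of MeJA-primed Stupicke replicate 3 lie together at 1.17 to 1.28. In the lower panel those of the same library (SlWRKY37, SlWRKY16 and SlWRKY78) lie within 0.18 of the mean. The study-listed SlWRKY39 and SlWRKY75 are not plotted and lay 0.23 and 0.72 above the mean in that library.

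The genes whose profile over the 18 libraries was most like each WRKY gene were found by Pearson's r of log2(CPM + 1), as a description. For SlWRKY31 they were Solyc10g054440 (r = 0.962) and SlWRKY40 (0.959), and for SlWRKY40 they were SlWRKY31 and again Solyc10g054440 (0.937), so that 2 of the 10 genes were picked out of all genes tested as each other's nearest or second nearest profile. For SlWRKY37 they were Solyc10g076670 (0.981) and Solyc04g071890 (0.978), and Solyc10g076670 was also second for SlWRKY78 (0.944) after Solyc05g051970 (0.952). SlWRKY39 was most like Solyc08g005050 (0.937), SlWRKY16 most like Solyc09g097960 (0.947) and SlWRKY33 most like Solyc04g054950 (0.930).

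A further 7 WRKY genes were named in the study's tables of MeJA-changed genes, and so were also chosen on these samples. Unlike the 5 study-listed genes, they were not picked for a rise in all 3 genotypes, so the counts of the 2 lists are not comparable. In Criollo 1 rose, SlWRKY53 (Solyc08g008280, log2 2.93 ± 0.66, adjusted p = 0.0179), whose call was lost without mock-primed replicate 1 or 2 or MeJA-primed replicate 2 (adjusted p 0.0734 to 0.111). In Micro-Tom 2 rose, SlWRKY30 (Solyc07g056280, log2 1.38 ± 0.30, adjusted p = 0.00710) and SlWRKY4 (Solyc05g012770, log2 0.64 ± 0.15, adjusted p = 0.0131). In Stupicke edgeR called 0, with 5 at an unadjusted p below 0.05, and DESeq2 called 3. Among all genes tested, edgeR called 3.19% up in Criollo, 7.98% in Micro-Tom and 1.45% in Stupicke. One of these 7, SlWRKY41, named after its values were seen, shared the pattern of the stress genes in MeJA-primed Stupicke, with 1.14, 0.702 and 7.78 CPM, of which the last again belongs to replicate 3. The MAP kinase genes SlMPK1, SlMPK2 and SlMPK3 did not pass edgeR's test under MeJA in any genotype, with log2 differences between -0.45 and 0.72. SlMPK3, the counterpart of an Arabidopsis kinase that acts on WRKY33, gave 19.7, 6.53 and 11.6 CPM in MeJA-primed Stupicke. These are transcript levels, which do not measure kinase activity, and the part of SlMPK3 in the WRKY results was not tested. Genes of 3 VQ-motif proteins, also chosen by the study, rose in 3 of 3 cases in Criollo and Micro-Tom and in 2 of 3 in Stupicke. Since both lists were chosen on these samples, their counts cannot be set against the shares of all genes.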

How the data were processed

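The authors sequenced polyA-enriched RNA on a BGISEQ-500 as paired-end reads of 100 bases and quantified them with Salmon (version 1.2 in the submitters' processing notes) on the SL4.0/ITAG4.0 transcriptome. They deposited estimated counts per gene, which are not normalized, and TPM values, which the authors scaled by transcript length and library. Every column matched a sample. The study's own fit was SARTools with DESeq2 at 5%. Here counts were rounded and tested in R 4.3.3 with edgeR 4.0.16 (TMM, filterByExpr, quasi-likelihood, 6 group means over all 18 libraries, no further term). P-values were adjusted over all 19914 genes tested by Benjamini-Hochberg and called at 0.05 without a minimum fold. They set each difference against a spread between biological replicates, 3 per group, that was estimated over all 18 libraries. Of the 10 members 8 were tested. The members, gene lists and tests were chosen with earlier results of these data known. Genes named are the 10 members, of the other WRKY genes called the 2 with the smallest adjusted p in each direction and genotype, and the 2 most similar profiles of members with a mean of at least 1 CPM. Seed, VQ and other WRKY lists rest on gene names in the study's tables, because the reference table pairs no Solyc identifiers, and the seed list was formed after the files had been opened. Neither leaf markers nor sequences were used here.

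As alternatives, low counts were left unfiltered or filtered more strictly (every library of 1 group at 10 counts or more), and scaling used RLE in place of TMM. DESeq2 1.42.0 was run on the same model. Further fits took the libraries compared only, added the replicate number as a block, or used limma 3.58.1 on log2(TPM + 1) or, with a smaller pseudocount, on log2(TPM + 0.1). Each of the 18 libraries was also left out in turn. A further 2 were chosen after seeing the data: limma voom with quality weights, and leaving out Micro-Tom mock replicate 3 with Stupicke MeJA replicate 3. Floors are 3 counts over a group unless given per library, and intervals are 95%. The edgeR, DESeq2 and limma fits were tested on simulated data. Figures used Python 3.11.15 and matplotlib 3.10.9.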

Additional observations from a re-analysis of the deposited data

How the results depend on the processing

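Of 72 tests of single WRKY genes in the 9 comparisons, 51 kept their side of the threshold under every alternative that gave a value, which was 27 or 28 of 28, and 0 reversed a call. The count of 5 WRKY genes called under MeJA in Stupicke ranged from 2 to 6 when a library was left out, with 2 reached without mock-primed Stupicke replicate 2 or 3 or MeJA-primed replicate 3, and was 3 with 2 libraries left out. The 4 called in Micro-Tom became 2 in the fit of the libraries compared only. The 3 that differed between mock-primed Stupicke and Criollo ranged from 1 to 4 when a library was left out, with 1 reached without Criollo replicate 3 or Stupicke replicate 2 or 3. The 3 that differed between mock-primed Criollo and Micro-Tom became 5 in the fit of the libraries compared only. The 0 differences in response between Stupicke and Micro-Tom and between Criollo and Micro-Tom became 1 each with DESeq2. Of the 7 other WRKY genes, the 1 called in Criollo became 2 with DESeq2, 0 with limma on log2(TPM + 1), 2 with 2 libraries left out and 0 to 2 when a library was left out. The 0 in Stupicke became 3 with DESeq2, 1 in the fit of the libraries compared only, 1 with limma voom and 0 to 1 when a library was left out. The 2 in Micro-Tom became 0 in the fit of the libraries compared only, 1 with limma on log2(TPM + 0.1) and 4 with limma voom. The causes were not tested.

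Deviations of mock-primed and MeJA-primed libraries with the same replicate number correlated at 0.02, 0.04 and -0.05 in Micro-Tom. The values were 0.31, 0.02 and 0.23 in Stupicke and -0.02, -0.25 and -0.23 in Criollo. In no genotype did every library correlate best with its own number, though replicates 1 and 3 of Stupicke did. With 3 replicates per group, these correlations cannot decide whether the numbers pair the samples. With the replicate block, 4 WRKY genes were called under MeJA in each genotype, since SlWRKY40 in Stupicke was lost (1.95, adjusted p = 0.0758). It changed no other MeJA call of these genes. Over all genes the block gave 2768 calls in Micro-Tom against 3110 without it, 261 against 311 in Stupicke and 712 against 877 in Criollo.

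The backgrounds also moved. Genes called in Criollo numbered 877 in the main test, 1376 with DESeq2, 1801 in the fit of the libraries compared only, 567 with limma on log2(TPM + 0.1), 4526 with limma voom and 1689 with 2 libraries left out. In Stupicke limma voom called 818 against 311, and in Micro-Tom the fit of the libraries compared only called 797 against 3110. Mock-primed Criollo and Micro-Tom differed in 6630 genes in that fit against 9961. Differences in response numbered 6, 89 and 19 for Stupicke against Criollo, Stupicke against Micro-Tom and Criollo against Micro-Tom, whereas DESeq2 gave 98, 532 and 98, limma on log2(TPM + 1) gave 40, 208 and 111, and limma voom gave 130, 368 and 98. For Stupicke against Micro-Tom they were 33 with the block and 16 in the fit of the libraries compared only. For Criollo against Micro-Tom they were 12 with the block, 29 with limma on log2(TPM + 0.1) and 35 with 2 libraries left out, which gave 2 for Stupicke against Criollo. When a library was left out, these differences ranged from 1 to 11 for Stupicke against Criollo, from 15 to 190 for Stupicke against Micro-Tom and from 0 to 28 for Criollo against Micro-Tom. With limma on log2(TPM + 1), mock-primed Stupicke exceeded Criollo in 2268 genes and fell short in 6565, against 3993 and 4309 in the main test. For Criollo and Micro-Tom these were 6098 and 3265 against 4744 and 5217, and for MeJA in Criollo 408 up and 461 down against 635 and 242, where the median of all genes moved to -0.12. For SlWRKY75, SlWRKY45 and SlWRKY46 counts limit the precision, and for the stress genes the spread between 3 replicates does.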
